A study of Rattus norvegicus with 9 samples.

Results

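Kinesins are motor proteins that walk along microtubules, and the 41 genes described here were chosen by symbol. A gene was taken when its symbol in the deposited table is Kif with a number, and a letter where there is one, or Kifc with a number. The rule found 41 of the 35362 genes of the table, each with a value in every one of the 9 samples. By role they were divided into 14 mitotic kinesins, 11 organelle transport kinesins, 10 kinesin-2 and cilium kinesins, and 6 other kinesins. The study grew adipose-derived mesenchymal stem cells (ASCs) from 3 fat depots of male Sprague Dawley rats aged 6 weeks and sequenced their total RNA at passage 3. SASCs came from subcutaneous fat of the groin, PASCs from perirenal fat, and EASCs from epididymal fat, with 3 samples in each group, and the latter pair of groups is called visceral here. The rats were fasted before the fat was taken. All cells were released by collagenase, plated in DMEM/F12, selected by adherence to the dish, and then grown in high glucose medium, both with serum. No sorting step is described. RNA was taken from single wells of culture plates, all 9 titles share the prefix sd1, and whether the wells of a group hold cells of 1 rat or of several is not given in the sources used here. The p-values therefore measure only the spread between these samples, which may be technical.

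Mitotic kinesins build the bipolar spindle, slide and shorten its microtubules, move chromosomes, and organize the midzone where the daughter cells part. Most of them are made in late interphase and mitosis and are degraded afterwards, so their transcripts are known to mark dividing cells. Organelle transport kinesins carry mitochondria, vesicles, and endosomes through the cytoplasm in dividing and resting cells alike, often through light chains and adaptors, while dynein moves cargo the opposite way. Kinesin-2 motors and their relatives serve transport within the cilium and regulate its length.

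Total counts were 17591916 to 30299032 per sample. Genes of ribosomal RNA took 10.4% to 15.5% of the counts of SASCs, 22.4% to 32.9% of those of PASCs, and 15.9% to 40.3% of those of EASCs. Reads of overlapping ribosomal RNA genes were counted for more than 1 gene, so the shares of reads were smaller. The total counts include these repeats. Values are given as CPM (counts relative to a library size corrected by TMM), and 3 counts correspond to 0.104 to 0.159 CPM, a limit that covers counting error only. Of 10 mesenchymal stem cell markers, 10 had a mean of at least 1 CPM in each group. Markers of other cells were at unequal levels in the groups. The summed level of 8 leukocyte and macrophage markers was 40.6 to 42.6 CPM among SASC samples, 61.9 to 64.0 among PASC samples, and 92.9 to 94.6 among EASC samples, with Cd3e at 0 counts in every sample and 6 of 8 at 1 CPM or above. That of 7 mesothelial markers was 18.4 to 20.02, 94.5 to 101, and 129 to 141 CPM, and that of 5 adipocyte markers was 87.1 to 95.9, 19.1 to 20.2, and 9.24 to 10.1 CPM. Endothelial markers, 5 in number, summed to 41.6 to 44.2, 11.5 to 14.3, and 29.3 to 32.1 CPM. Among them Tek went the other way, with means of 2.55, 8.30, and 8.08 CPM in SASCs, PASCs, and EASCs. In the same order Cdh5 was at 9.20, 1.13, and 9.77 CPM and Vwf at 2.55, 0.571, and 2.49 CPM, with EASCs near SASCs. In bulk RNA, fewer cells of a type and less RNA per cell cannot be told apart, and the part of these cells in the results below was not tested.

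The kinesin genes together took 1146 to 1181 ppm of the counts outside ribosomal RNA in the SASC samples, 1781 to 1839 in the PASC samples, and 1512 to 1615 in the EASC samples. To compare levels between genes, CPM were divided by gene length in kilobases. On this scale the mitotic kinesins summed to 14.7, 15.5, and 16.6 CPM per kilobase in the SASC samples, to 139, 144, and 142 in PASCs, and to 94.7, 92.1, and 89.1 in EASCs. The 3 groups did not overlap. The organelle transport kinesins summed to 90.5, 91.6, and 89.9 CPM per kilobase among SASCs, 118, 115, and 111 among PASCs, and 121, 117, and 112 among EASCs, so that SASCs lay below both visceral groups, which overlapped. Scaled by library totals without TMM, a setting chosen after the data were seen, the transport sums overlapped in all groups, at 105 to 113 among SASCs, 102 to 112 among PASCs, and 83.1 to 126 among EASCs. The mitotic sums, at 17.1 to 19.3, 127 to 143, and 65.9 to 98.7, stayed apart. Mitotic kinesins made up 10.3% ± 0.537 of the summed kinesin level in SASCs (SD, n = 3 here and in the next values), 46.3% ± 0.642 of that in PASCs, and 35.2% ± 0.252 of that in EASCs. The share of organelle transport kinesins was 59.9% ± 0.968, 37.5% ± 1.07, and 44.8% ± 0.551 in the same order, and its range did not overlap between any of the groups. The ratio of the mitotic to the transport sum was 0.172 ± 0.0114 for SASCs, 1.24 ± 0.0514 for PASCs, and 0.787 ± 0.00502 for EASCs.

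**Figure D1:**
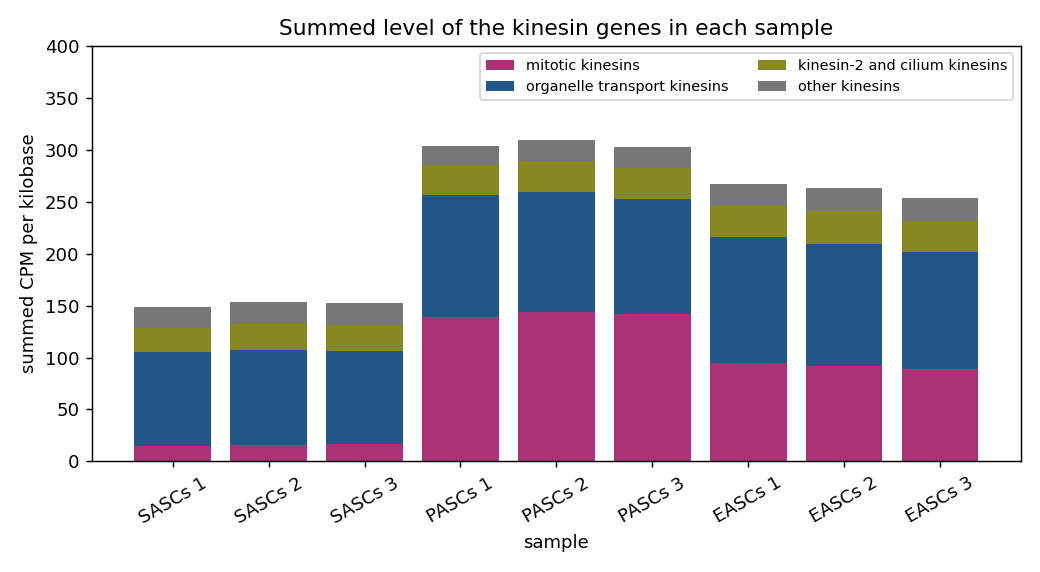
Summed level of the kinesin genes in each of the 9 samples, in CPM per kilobase of gene length, with the 4 groups of kinesins stacked in 1 bar per sample. The mitotic part is 14.7 to 16.6 in SASCs and 89.1 to 144 in the PASC and EASC samples, the organelle transport part is 89.9 to 91.6 and 111 to 121, the kinesin-2 and cilium part 23.7 to 25.3 and 29.0 to 32.3, and the part of the 6 remaining kinesins 18.8 to 22.0 over all samples.

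The most abundant kinesin per length was a transport motor in all 3 groups. Kif1c had 41.3 ± 1.40 CPM per kilobase (SD, n = 3) among SASCs, 47.7 ± 3.64 among PASCs, and 47.2 ± 0.742 among EASCs, and Kif5b followed with 22.4 ± 0.960, 40.5 ± 1.31, and 39.5 ± 4.19. These levels did not overlap within any group. Below them the order differed. In SASCs the next places were held by the microtubule depolymerase Kif2a with 10.6 CPM per kilobase and the kinesin-2 gene Kif3b with 9.85, whose samples overlapped, and the first mitotic kinesin, Kif22, was at rank 12 with 3.45, beside Kif3a and Kif20a, from which it did not differ beyond the spread. In PASCs ranks 3 to 5 were held by the mitotic kinesins Kif20a with 29.5 CPM per kilobase, Kif22 with 28.4, and Kifc1 with 24.2, of which the first pair overlapped. In EASCs the same 3 genes held these ranks with 23.1, 20.9, and 13.2 CPM per kilobase, each apart from the next.

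Compared with SASCs, mitotic kinesins were higher in both visceral groups. DEGs were genes with more than a 2-fold change whose adjusted p-value was under 0.05 by edgeR's quasi-likelihood test with Benjamini-Hochberg adjustment. Of the 14 mitotic kinesins 12 passed the filter on low counts, and in EASCs 11 of the 12 were upregulated DEGs, where 13.6% of all 14770 genes tested were, and 0 were downregulated, where 14.2% were. At an adjusted p-value under 0.05 and any fold change 12 of 12 were higher in EASCs, against 35.5% of all genes, and 0 were lower, against 34.3%. In PASCs all 12 were upregulated DEGs, against a background of 12.0%, and 0 downregulated, against 14.9%. The percentages at any fold change were 34.6% for higher and 34.6% for lower genes in PASCs, where 12 and 0 of the mitotic kinesins passed. Their median log2 fold change was 2.52 in EASCs, in a range from 0.99 to 3.11, and 3.13 in PASCs, from 1.78 to 3.86, beside medians of 0.01 and -0.01 for all genes tested. Both comparisons use the same SASC samples and are not independent. The lowest PASC and EASC samples lay above the highest SASC sample for each of the 12 genes, a separation that 36.3% of all genes had in EASCs and 35.7% in PASCs.

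Among the motors of cytokinesis, Kif23 (chr8:66866086-66893179, minus strand), the motor of the centralspindlin complex that bundles midzone microtubules, had the largest fold changes of the mitotic kinesins. Kif23 was at 3.13, 3.52, and 3.17 CPM in SASCs, at 46.2, 49.6, and 46.5 CPM in PASCs, and at 30.02, 29.5, and 25.2 CPM in EASCs. The 3 groups were far apart, with all PASC samples above all EASC samples. The log2 fold change of Kif23 was 3.86 ± 0.103 (SE) in PASCs, a 14.5-fold difference (adjusted p = 3.34e-22, edgeR), and 3.11 ± 0.106 in EASCs, an 8.64-fold difference (adjusted p = 6.85e-20, edgeR). Kif20a, which brings the chromosomal passenger complex to the midzone, was at 9.49, 9.08, and 11.5 CPM in SASCs, at 82.6, 88.1, and 87.8 CPM in PASCs, and at 66.9, 68.9, and 66.8 CPM in EASCs, again without overlap. Kif20a shares 1890 bases with Cdc23 on the other strand, which was at 42.0, 54.5, and 51.0 CPM in the means of SASCs, PASCs, and EASCs. Since the use of strand in counting is not stated, reads of that stretch cannot be told apart. Kif20b, a motor of late cytokinesis, was at 3.34, 4.33, and 4.15 CPM in SASCs, at 20.8, 22.8, and 23.1 CPM in PASCs, and at 13.7, 12.6, and 14.9 CPM in EASCs. Kif14, which recruits citron kinase to the midbody, was at 2.29, 1.49, and 3.17 CPM in SASCs, at 16.3, 17.6, and 18.6 CPM in PASCs, and at 8.25, 10.6, and 12.3 CPM in EASCs. All SASC samples of Kif14 lay apart from those of the other groups. Kif4a, a chromokinesin that also sets the length of the midzone, had 3.27, 3.31, and 2.64 CPM in SASCs, 26.2, 29.8, and 26.8 CPM in PASCs, and 18.6, 17.8, and 13.5 CPM in EASCs.

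Among the motors of the spindle itself, Kif11, which pushes the spindle poles apart, was at 4.97, 5.77, and 6.54 CPM in SASCs, at 46.2, 52.7, and 58.0 CPM in PASCs, and at 29.2, 27.7, and 23.6 CPM in EASCs. Kifc1, a minus-end motor that focuses the poles, was at 4.80, 4.54, and 5.08 CPM in SASCs, at 53.4, 57.9, and 55.0 CPM in PASCs, and at 30.4, 29.8, and 30.2 CPM in EASCs. Both genes showed 3 separate groups of samples. The log2 fold changes of Kifc1 were 3.53 ± 0.0871 (SE) in PASCs (adjusted p = 6.01e-23, edgeR) and 2.65 ± 0.0895 in EASCs (adjusted p = 5.86e-20, edgeR). Kif15, a motor that can stand in for Kif11 in spindle assembly, had the smallest fold changes. Kif15 (chr8:132033117-132103528, plus strand) was at 3.30, 3.61, and 3.95 CPM in SASCs, at 11.4, 14.2, and 11.3 CPM in PASCs, and at 6.20, 7.54, and 7.69 CPM in EASCs. Its groups were separate too, but closer together. The log2 fold change of Kif15 was 1.78 ± 0.145 (SE) in PASCs (adjusted p = 1.85e-11, edgeR) and 0.99 ± 0.151 in EASCs (adjusted p = 2.00e-06, edgeR), where its 1.98-fold difference fell just short of the fold threshold. Without SASC sample 3 or EASC sample 1 it became a DEG, with values of 1.05 and 1.08.

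Chromosome movement was represented by Kif22, which pushes chromosome arms toward the spindle equator, and by motors that shorten microtubules at kinetochores. Kif22 was at 6.36, 7.73, and 7.37 CPM in SASCs, at 62.0, 58.0, and 56.9 CPM in PASCs, and at 45.2, 41.9, and 42.9 CPM in EASCs. Kif2c, a depolymerase that corrects faulty attachments, was at 3.27, 2.55, and 2.34 CPM in SASCs, at 33.2, 32.6, and 33.4 CPM in PASCs, and at 20.9, 20.6, and 18.3 CPM in EASCs. The samples of the 3 groups were separate for both. Kif18a and Kif18b limit the growth of spindle microtubules. Kif18b was at 2.05, 2.00, and 2.59 CPM in SASCs, at 26.2, 23.2, and 25.3 CPM in PASCs, and at 18.2, 15.2, and 16 CPM in EASCs. The level of Kif18a was 1.22, 1.78, and 1.32 CPM in SASCs, 6.96, 7.63, and 6.14 CPM in PASCs, and 4.06, 2.96, and 3.0 CPM in EASCs. In EASCs the log2 fold change was 2.91 ± 0.132 (SE) for Kif18b (adjusted p = 5.06e-17, edgeR) and 1.22 ± 0.220 (adjusted p = 2.22e-05) for Kif18a, whose call was lost with library totals (0.81), so that 10 mitotic kinesins were DEGs there. The other 2 mitotic kinesins could not be tested. Kif2b, a relative of Kif2c, had 2 counts in 1 SASC sample and 0 in the 8 other samples, and Kif4b, a copy of Kif4a listed by RefSeq as a pseudogene, had 0 to 4 counts.

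**Figure D2:**
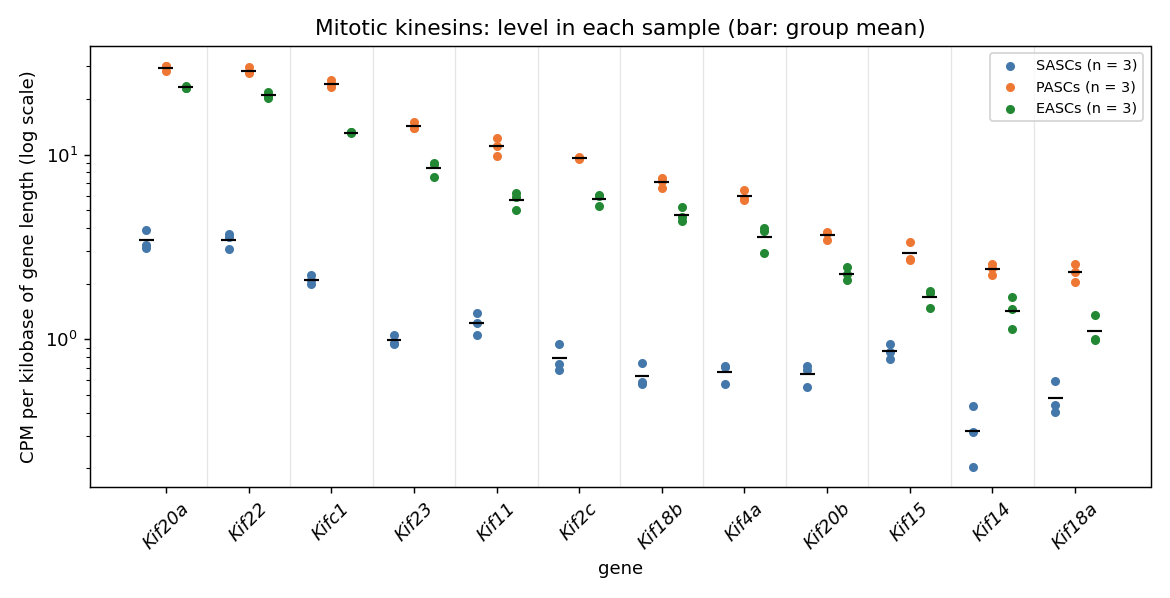
Level of the 12 tested mitotic kinesins in each sample, in CPM per kilobase of gene length on a log scale, with a bar at each group mean (n = 3). For every gene the SASC samples are lowest, the PASC samples highest, and the EASC samples between them, from 0.319 (mean of Kif14 in SASCs) to 29.5 (mean of Kif20a in PASCs).

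Since the mitotic kinesins moved together, the sequence around their start sites was read for the CCAAT box and the cell cycle genes homology region (CHR), elements known from promoters of genes of mitosis. The search covered 250 bases before to 50 after the start in RefSeq promoters of GRCr8, a build other than that of the counts, and 30 of the 41 kinesins had an entry. The letters CCAAT, and TTTGAA or TTCGAA for the CHR, were searched on both strands. A CCAAT match was present in 7 of 11 mitotic kinesins, 2 of 7 organelle transport kinesins, 3 of 8 kinesin-2 and cilium kinesins, and 1 of 4 others, and in 37.5% of all 33469 promoters. A CHR match was present in 6, 0, 1, and 1 of the same groups and in 19.7% of all promoters. Both were present in 5, 0, 1, and 1 of the same groups and in 7.95% of all promoters. Outside the mitotic kinesins these were Kif24, which was higher in the visceral groups than in SASCs, and Kif26b, which was lower. The sequences, with the matches in capitals, are those of the mitotic kinesins of the largest and smallest fold change (Kif23 and Kif15), Kifc1, whose motor lies at the opposite end of the protein, and the most abundant transport kinesin (Kif1c), each from 5′ to 3′ on the strand of the gene.
Kif23: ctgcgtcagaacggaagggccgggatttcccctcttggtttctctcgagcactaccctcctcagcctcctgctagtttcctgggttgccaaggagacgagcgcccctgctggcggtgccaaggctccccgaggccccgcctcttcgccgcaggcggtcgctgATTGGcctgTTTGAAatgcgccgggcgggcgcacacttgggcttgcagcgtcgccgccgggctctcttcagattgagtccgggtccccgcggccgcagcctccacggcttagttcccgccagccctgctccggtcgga
Kif15: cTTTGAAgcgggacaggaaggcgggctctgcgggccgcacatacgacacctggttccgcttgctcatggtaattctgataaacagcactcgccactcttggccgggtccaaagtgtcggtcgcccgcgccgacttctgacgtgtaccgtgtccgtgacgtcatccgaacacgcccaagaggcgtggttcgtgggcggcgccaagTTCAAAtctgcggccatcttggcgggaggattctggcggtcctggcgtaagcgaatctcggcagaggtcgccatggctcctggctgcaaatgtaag
Kifc1: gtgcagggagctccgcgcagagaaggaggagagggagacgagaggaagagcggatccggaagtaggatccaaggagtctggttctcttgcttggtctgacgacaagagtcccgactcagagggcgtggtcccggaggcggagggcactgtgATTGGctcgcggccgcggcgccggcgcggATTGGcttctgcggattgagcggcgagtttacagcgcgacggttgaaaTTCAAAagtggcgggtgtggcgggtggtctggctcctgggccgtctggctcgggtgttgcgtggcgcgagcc
Kif1c: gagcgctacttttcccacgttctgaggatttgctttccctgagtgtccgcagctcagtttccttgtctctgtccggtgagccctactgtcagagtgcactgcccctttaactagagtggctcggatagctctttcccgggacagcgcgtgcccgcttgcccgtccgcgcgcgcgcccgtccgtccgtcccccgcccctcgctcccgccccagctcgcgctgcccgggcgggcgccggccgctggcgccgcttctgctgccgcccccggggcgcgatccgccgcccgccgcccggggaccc
The Kif23 promoter (chr8:71320535-71320834, minus strand) holds the CCAAT box as ATTGG at -88 and TTTGAA at -79, counted from the start site. That of Kifc1 (chr20:5000679-5000978, plus strand) holds ATTGG at -99 and -70 and the CHR as TTCAAA at -22. That of Kif15 (chr8:131479154-131479453, plus strand) has TTTGAA at -249 and TTCAAA at -46 without a CCAAT box, and that of Kif1c (chr10:55912843-55913142, plus strand) has neither set of letters. No pair of these matches overlapped. A match describes the letters only, and binding was not measured.

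Between the visceral groups mitotic kinesins were lower in EASCs. All 12 were lower at an adjusted p-value under 0.05 (edgeR), where 14.5% of all genes were lower and 16.1% higher, and 0 were higher. This did not hold under every alternative setting, since the adjusted p-value of Kif20a was at most 0.0624 over 17 of them (edgeR or DESeq2). As DEGs 1 was lower, against 2.2% of all genes, and 0 were higher, against 5.19%. The median log2 fold change was -0.74, in a range from -1.05 to -0.35, with -0.01 for all genes tested, and for each of the 12 genes all EASC samples lay below all PASC samples, as in 20.1% of all genes. The largest difference was that of Kif18a (chr3:100366168-100426687, plus strand), whose values are given above, with a log2 fold change of -1.05 ± 0.185 (SE; adjusted p = 5.47e-05, edgeR). Kif18a was no longer a DEG without PASC sample 2, EASC sample 2, or EASC sample 3, with values of -0.98, -0.97, and -0.98. Kif11 followed with -0.96 ± 0.0919 (SE; adjusted p = 2.80e-09, edgeR). It became a DEG without PASC sample 1 (-1.04) or EASC sample 1 (-1.02) and with library totals (-1.02). The smallest differences were those of Kif20a with -0.35 ± 0.0645 and Kif22 with -0.45 ± 0.0700, the most abundant mitotic kinesins.

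Spindle proteins that work with these motors were higher in the visceral groups as well. Of 18 spindle partners, all of which were tested, 15 were upregulated DEGs in EASCs and 15 in PASCs, against 13.6% and 12.0% of all genes tested, and 0 were downregulated in either, against 14.2% and 14.9%, with median log2 fold changes of 2.49 and 3.0. In EASCs against PASCs 0 of 18 were DEGs, against 5.19% of all genes higher and 2.2% lower, and 16 were lower at an adjusted p-value under 0.05 (edgeR), against 14.5%, with a median of -0.56. Plk1, the kinase that recruits several of these motors, was at 3.96, 3.27, and 3.81 CPM in SASCs, at 62.0, 63.6, and 59.7 CPM in PASCs, and at 40.1, 42.6, and 42.4 CPM in EASCs, with log2 fold changes of 4.06 in PASCs and 3.50 in EASCs. Racgap1, the partner of Kif23 in centralspindlin, was at 1.22, 1.15, and 0.683 CPM in SASCs, at 13.3, 14.5, and 14.1 CPM in PASCs, and at 8.08, 8.39, and 7.69 CPM in EASCs. Its groups did not overlap, and its log2 fold changes of 3.74 and 2.95 were close to those of Kif23. Ect2, which binds centralspindlin, reached 3.78 and 3.22, Prc1, which bundles the midzone and binds Kif4a, 3.66 and 3.11, and Birc5, of the chromosomal passenger complex, 3.53 and 2.76 in PASCs and EASCs. The list also holds Cenpe, a kinesin of the kinetochore by another name, which the symbol rule does not match, and which was an upregulated DEG in both groups with 2.44 and 1.71. The 3 partners that were not DEGs were Mapre1 and Ckap5, which act at microtubule plus ends, and Numa1, a protein of the spindle poles. They had log2 fold changes of 0.70, 0.51, and -0.10 in PASCs and 0.71, 0.11, and -0.23 in EASCs.

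Organelle transport kinesins showed no common direction against SASCs. Of 11 genes 10 were tested, and in EASCs 2 were upregulated DEGs, against 13.6% of all genes, 2 were downregulated, against 14.2%, and 6 were not DEGs. In PASCs 2 were upregulated, against 12.0%, 3 downregulated, against 14.9%, and 5 were not DEGs. At an adjusted p-value under 0.05 and any fold change, 6 were higher and 4 lower in EASCs, against 35.5% and 34.3% of all genes, and 5 were higher and 4 lower in PASCs, against 34.6% in either direction. The median log2 fold change was 0.19 in EASCs and 0.10 in PASCs, with values from -2.76 to 2.53 and from -2.86 to 1.59. In EASCs against PASCs 1 was a DEG, higher in EASCs, against 5.19% of all genes higher and 2.2% lower, and the median was 0.15. At any fold change 4 were higher in EASCs than in PASCs, against 16.1% of all genes, and 0 were lower, against 14.5%.

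Among the kinesin-1 heavy chains, the main carriers of mitochondria and vesicles, Kif5c was an upregulated DEG in both visceral groups. Kif5c (chr3:35014168-35257417, plus strand), a heavy chain best known from neurons, was at 4.17, 3.57, and 3.95 CPM in SASCs, at 11.6, 11.2, and 12.6 CPM in PASCs, and at 22.4, 22.1, and 23.2 CPM in EASCs. The 3 groups were separate, and unlike the mitotic kinesins Kif5c was highest in EASCs. Its log2 fold change was 2.53 ± 0.113 (SE) in EASCs (adjusted p = 3.15e-17, edgeR), 1.59 ± 0.118 in PASCs (adjusted p = 2.39e-12), and 0.94 ± 0.0984 in EASCs against PASCs (adjusted p = 1.50e-08), just under the fold threshold. Of 6 neuron markers only Stmn2 reached 1 CPM, with means of 3.33, 2.36, and 9.65 CPM in SASCs, PASCs, and EASCs, and Snap25, Elavl3, and Rbfox3 were at 0 counts in EASCs. Kif5b, the heavy chain found in all tissues, was at 137, 135, and 126 CPM in SASCs, at 243, 231, and 245 CPM in PASCs, and at 261, 229.5, and 212 CPM in EASCs. Its visceral groups overlapped and lay above SASCs. Kif5b passed the test without being a DEG, at 1.76-fold in EASCs (adjusted p = 6.63e-12, edgeR) and 1.80-fold in PASCs (adjusted p = 2.84e-12). Kif5a, the neuronal heavy chain, had 3 to 10 counts per sample, overlapped between all groups, and was not tested.

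Among kinesin-3 motors, Kif1c, which carries vesicles along the cell and is the most abundant kinesin here, differed little. Its level was 215, 223, and 209 CPM in SASCs, 264, 255, and 228 CPM in PASCs, and 248, 249, and 242 CPM in EASCs. The SASC samples were lowest without overlap, and the log2 fold changes of 0.19 ± 0.0570 (SE) in EASCs (adjusted p = 0.00413, edgeR) and 0.21 ± 0.0570 in PASCs (adjusted p = 0.00208) turned to -0.20 and -0.12 when counts were scaled by library totals without TMM. Kif1b, a carrier of mitochondria and vesicles, was at 44.4, 43.4, and 53.8 CPM in SASCs, at 44.0, 50.2, and 47.1 CPM in PASCs, and at 52.3, 55.4, and 53.1 CPM in EASCs, so that SASCs overlapped with both groups. Its log2 fold change was 0.19 ± 0.0749 in EASCs (adjusted p = 0.0294, edgeR), turning to -0.20 with library totals, and 0.00 ± 0.0754 in PASCs (adjusted p = 0.992). Kif13a, which carries cargo from the trans-Golgi network and endosomes, was at 44.4, 44.3, and 47.7 CPM in SASCs, at 52.0, 55.7, and 52.8 CPM in PASCs, and at 60.4, 62.0, and 61.2 CPM in EASCs. Kif13a stepped up from SASCs to PASCs to EASCs without overlap, by log2 fold changes of 0.43 in EASCs and 0.24 in PASCs, which became 0.04 and -0.09 with library totals.

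Lower levels in the visceral groups were found for other kinesin-3 motors. Kif13b (chr15:48030852-48192925, plus strand), a relative of Kif13a that carries membrane cargo, was at 62.3, 63.8, and 59.2 CPM in SASCs, at 27.2, 25.4, and 20.1 CPM in PASCs, and at 31.2, 28.7, and 34.1 CPM in EASCs. All SASC samples were above all others. Kif13b was a downregulated DEG in PASCs with -1.34 ± 0.0861 (SE; adjusted p = 1.15e-13, edgeR) and fell short of the fold threshold in EASCs with -0.98 ± 0.0843 (adjusted p = 5.29e-11), where it became a DEG without SASC sample 3 (-1.01) or EASC sample 3 (-1.04) as well as with DESeq2 or RLE size factors (-1.0 in both) and library totals (-1.39). Kif16b, a motor of early endosomes, was at 25.7, 24.2, and 26.8 CPM in SASCs, at 13.4, 15.7, and 13.4 CPM in PASCs, and at 12.7, 13, and 11.2 CPM in EASCs. It was lower in both groups, by log2 fold changes of -1.05 ± 0.0966 in EASCs (adjusted p = 2.10e-10, edgeR), which was a DEG but not without EASC sample 3 (-0.99), and of -0.85 ± 0.0953 in PASCs (adjusted p = 1.02e-08), which was not. Kif1a, which carries synaptic vesicle precursors in axons, was at 3.30, 3.86, and 4.74 CPM in SASCs, at 1.34, 1.05, and 0.953 CPM in PASCs, and at 2.55, 2.88, and 2.55 CPM in EASCs. PASCs were lowest and SASCs highest, each separate from EASCs. Kif1a was a downregulated DEG in PASCs with -1.81 ± 0.243 (SE; adjusted p = 2.45e-07, edgeR) and the transport kinesin that differed as a DEG between EASCs and PASCs, with 1.24 ± 0.252 (adjusted p = 0.000323). The locus of Kif1a lies over Ppp1r7 on the other strand, with 81769 bases in common, and Ppp1r7 was at 43.0, 42.8, and 42.9 CPM in the 3 groups.

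The C-terminal kinesins, which move cargo toward the minus end, went opposite ways. Kifc3 (chr19:10245069-10339186, plus strand), known from the Golgi apparatus and cell junctions, was at 16.2, 17.4, and 19.2 CPM in SASCs, at 45.1, 46.8, and 43.3 CPM in PASCs, and at 37.4, 42.2, and 39.2 CPM in EASCs. Kifc2 (chr7:117723263-117730702, plus strand), a transport motor described in neurons, was at 3.51, 3.1, and 3.22 CPM in SASCs, at 0.727, 0.187, and 0.424 CPM in PASCs, and at 0.335, 0.365, and 0.760 CPM in EASCs. For both the SASC samples stood apart from all others, above them for Kifc2 and below them for Kifc3. The log2 fold changes of Kifc3 were 1.18 ± 0.0792 (SE) in EASCs (adjusted p = 3.24e-13, edgeR), which dropped to 0.78 and was no longer a DEG with library totals, and 1.36 ± 0.0788 in PASCs (adjusted p = 1.16e-14). Those of Kifc2 were -2.76 ± 0.370 (adjusted p = 2.40e-07) and -2.86 ± 0.374 (adjusted p = 1.49e-07), the largest decreases of the kinesins, from 66 to 101 counts in SASCs to 5 to 19 in the other samples. Kifc2 shares 396 bases with Foxh1 on the other strand, which had means of 0.532, 0.0432, and 0.0693 CPM.

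**Figure D3:**
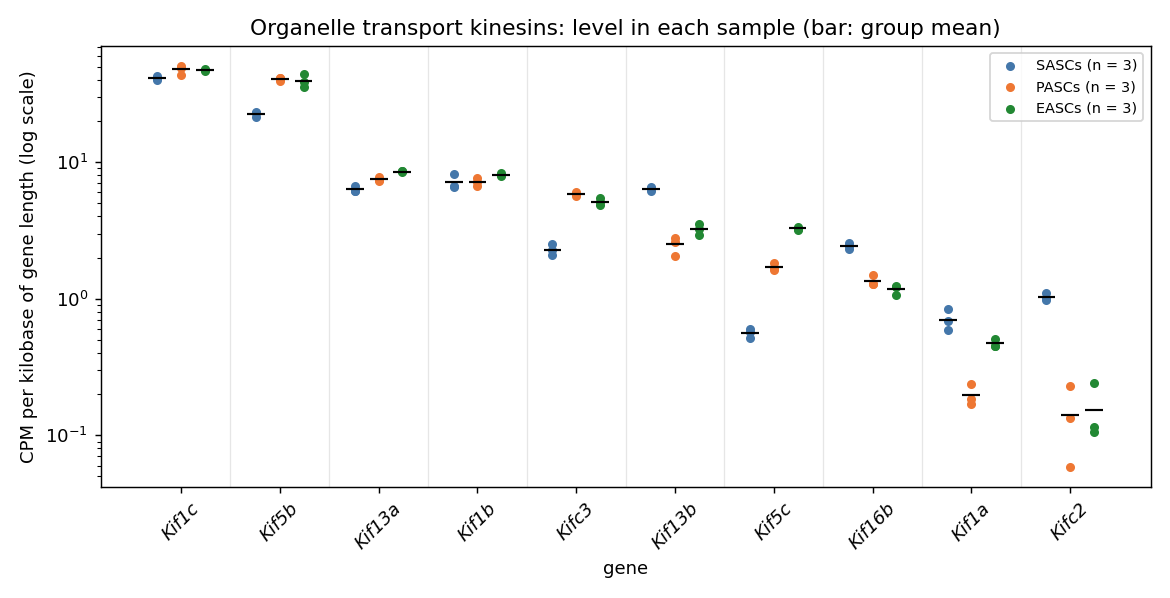
Level of the 10 tested organelle transport kinesins in each sample, in CPM per kilobase of gene length on a log scale, with a bar at each group mean (n = 3). Kif1c and Kif5b stand above the rest in every group, Kifc3 and Kif5c are higher in PASCs and EASCs than in SASCs, and Kifc2, Kif13b, Kif16b, and Kif1a are lower.

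Light chains and cargo adaptors link these motors to their cargo. Of 17 genes 16 were tested, and 1 was an upregulated and 1 a downregulated DEG in EASCs, where 13.6% and 14.2% of all genes were, and in PASCs, where 12.0% and 14.9% were, with median log2 fold changes of -0.07 and -0.08. Klc3, a kinesin light chain, was at 1.84, 2.12, and 1.95 CPM in SASCs, at 4.02, 4.41, and 4.18 CPM in PASCs, and at 3.81, 3.16, and 5.10 CPM in EASCs, a rise of 1.09 in PASCs and 1.03 in EASCs on the log2 scale. Mapk8ip3, an adaptor of kinesin-1 in axons, was at 41.4, 45.8, and 45.3 CPM in SASCs, at 17.7, 19.0, and 19.1 CPM in PASCs, and at 19.9, 22.1, and 20.2 CPM in EASCs, a decrease with log2 fold changes of -1.25 and -1.09. Neither gene overlapped between SASCs and the other groups. The light chains Klc1 and Klc2 passed the test below the fold threshold, with log2 fold changes of 0.80 and 0.54 in PASCs and 0.66 and 0.66 in EASCs, and Plekhm2, which links kinesin-1 to lysosomes, had -0.59 and -0.63. For dynein and dynactin, 20 of 22 genes were tested, and 0 were DEGs in EASCs, against the same percentages of all genes, where 13 were higher and 2 lower at an adjusted p-value under 0.05 (edgeR), against 35.5% and 34.3% of all genes. In PASCs 1 was an upregulated DEG, against 12.0% of all genes, and 0 were downregulated, against 14.9%. At any fold change 10 were higher and 2 lower in PASCs, against 34.6% of all genes in either direction. The DEG was the dynein regulator Nde1. It had 14.8, 16.8, and 17.2 CPM in SASCs, 30.7, 33.8, and 32.9 CPM in PASCs, and 27.8, 28.1, and 25.5 CPM in EASCs. Its log2 fold change in PASCs was 1.00 ± 0.0838 (SE; adjusted p = 3.26e-11, edgeR), just past the fold threshold. The light chain Dynll1, with 0.95 in PASCs and 0.96 in EASCs, and the dynactin subunits Dctn6, Actr1a, and Dctn3, with 0.83, 0.71, and 0.53 in EASCs, stayed below the fold threshold.

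Kinesin-2 and cilium kinesins were mixed. Of 10 genes 8 were tested, 3 were upregulated DEGs in EASCs and 4 in PASCs, against 13.6% and 12.0% of all genes, and 0 and 1 were downregulated, against 14.2% and 14.9%. Kif3c, a kinesin-2 motor, was at 17.4, 18.4, and 17.9 CPM in SASCs, at 34.0, 38.4, and 40.7 CPM in PASCs, and at 36.2, 36.8, and 37.1 CPM in EASCs, with the visceral groups overlapping above SASCs. It was a DEG with log2 fold changes of 1.04 ± 0.0789 (SE) in EASCs (adjusted p = 4.30e-12, edgeR) and 1.07 ± 0.0788 in PASCs (adjusted p = 2.10e-12), but not with library totals (0.64 and 0.75). The other motor subunits of kinesin-2, Kif3a and Kif3b, had log2 fold changes of 0.61 and -0.14 in EASCs and 0.37 and -0.27 in PASCs, and Kif7, a regulator of Hedgehog signaling at the cilium tip, had -0.28 and -0.25. Kif24, which acts at the mother centriole and holds back cilium growth in cycling cells, was at 2.02, 1.78, and 1.17 CPM in SASCs, at 6.96, 5.76, and 5.88 CPM in PASCs, and at 3.27, 4.01, and 4.43 CPM in EASCs. Its order, with SASCs lowest and PASCs highest without overlap, was that of the mitotic kinesins, with log2 fold changes of 1.88 ± 0.206 in PASCs (adjusted p = 6.49e-09, edgeR) and 1.21 ± 0.215 in EASCs (adjusted p = 1.73e-05), the latter 0.81 and no longer a DEG with library totals.

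The remaining cilium kinesins rested on few counts. Kif6, of motile cilia, had 3, 1, and 0 counts in the SASC samples, 5, 8, and 17 in the PASC samples, and 12, 19, and 22 in the EASC samples, so that its calls as an upregulated DEG (adjusted p = 0.000156 in EASCs and 0.00357 in PASCs, edgeR) say little of the size. Without PASC sample 3 the call in PASCs was lost (log2 fold change 2.08, adjusted p = 0.0527, edgeR). Kif27, a relative of Kif7, had 2, 7, and 11 counts in the SASC samples, 22, 17, and 12 in the PASC samples, and 13, 22, and 10 in the EASC samples, and was an upregulated DEG in PASCs with 1.31 ± 0.550 (SE; adjusted p = 0.0373, edgeR). That call was lost without SASC sample 1 (0.77) or 2 (1.34), without PASC sample 1 (1.15), 2 (1.38), or 3 (1.37), by DESeq2 (1.27), and with library totals (0.98), while without SASC sample 3 Kif27 became a DEG in EASCs as well (1.82). The gene listed as Kif9, of motile cilia, had 32, 20, and 17 counts in the SASC samples, 14, 0, and 5 in the PASC samples, and 19, 14, and 22 in the EASC samples. It was a downregulated DEG in PASCs with -1.80 ± 0.576 (adjusted p = 0.00735, edgeR), which was lost without PASC sample 2 (-1.17). Its row carries the gene identifier of Setd2, so its identity is uncertain. Of 6 ciliated cell markers 1 reached a mean of 1 CPM, Ccdc39 with 6.18, 2.88, and 3.12 CPM in SASCs, PASCs, and EASCs, and Dnah5 and Dnai1 were at 0 counts in every sample. The summed level of the 6 was 4.75 to 8.59, 2.69 to 4.32, and 3.98 to 4.52 CPM, and its part in these values was not tested. Kif17 with 0 to 4 counts and Kif19 with 0 to 9 counts were not tested.

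Among the other kinesins 5 of 6 were tested, and 0 were DEGs against SASCs, where 13.6% of all genes were higher and 14.2% lower in EASCs and 12.0% and 14.9% in PASCs. Between the visceral groups 1 was higher and 1 lower in EASCs as a DEG, against 5.19% and 2.2% of all genes. Kif21a, which restrains microtubule growth at the cell cortex, was at 5.25, 4.67, and 3.51 CPM in SASCs, at 7.31, 6.50, and 7.78 CPM in PASCs, and at 2.34, 3.04, and 2.59 CPM in EASCs. PASCs were above and EASCs below SASCs without overlap, and the log2 fold change in EASCs against PASCs was -1.43 ± 0.179 (SE; adjusted p = 3.36e-07, edgeR). Kif26a, a kinesin without motor activity, was at 2.92, 2.16, and 2.78 CPM in SASCs, at 1.76, 2.36, and 1.32 CPM in PASCs, and at 4.81, 5.84, and 4.43 CPM in EASCs. EASCs were above both other groups, which overlapped, and Kif26a became a DEG against SASCs without SASC sample 1 (1.03) or EASC sample 3 (1.02). Its log2 fold change in EASCs against PASCs was 1.45 ± 0.222 (adjusted p = 8.48e-06, edgeR). Kif2a, a depolymerase of neurons and of the spindle, was at 43.1, 48.9, and 43.8 CPM in SASCs, at 44.2, 48.9, and 47.1 CPM in PASCs, and at 49.2, 48.2, and 49.2 CPM in EASCs. All its groups overlapped, and its log2 fold changes of 0.11 ± 0.0669 in EASCs and 0.05 ± 0.0671 in PASCs did not pass the test (adjusted p = 0.146 and 0.547, edgeR). Kif21b and Kif26b passed the test below the fold threshold, with 0.47 and -0.32 in EASCs and 0.44 and -0.86 in PASCs. Kif12 had 0 counts in all samples but EASC samples 1 and 3, with 3 and 4 counts.

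Set side by side, the log2 fold changes of the mitotic and organelle transport kinesins overlapped in EASCs against SASCs. In the other comparisons the estimates were apart, but the SE of the nearest members overlapped. In PASCs the smallest log2 fold change of a mitotic kinesin, 1.78 ± 0.145 (SE) of Kif15, was above the largest of a transport kinesin, 1.59 ± 0.118 of Kif5c. In EASCs Kif5c with 2.53 stood above 6 of the 12 mitotic kinesins, and Kifc3 with 1.18 above Kif15. In EASCs against PASCs the mitotic kinesins were at -1.05 to -0.35 and the transport kinesins at -0.20 to 1.24. The nearest members there were Kif20a with -0.35 ± 0.0645 (SE) and Kif16b with -0.20 ± 0.101. The difference between the lists was not tested, since their members were chosen with results of these data known.

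**Figure D4:**
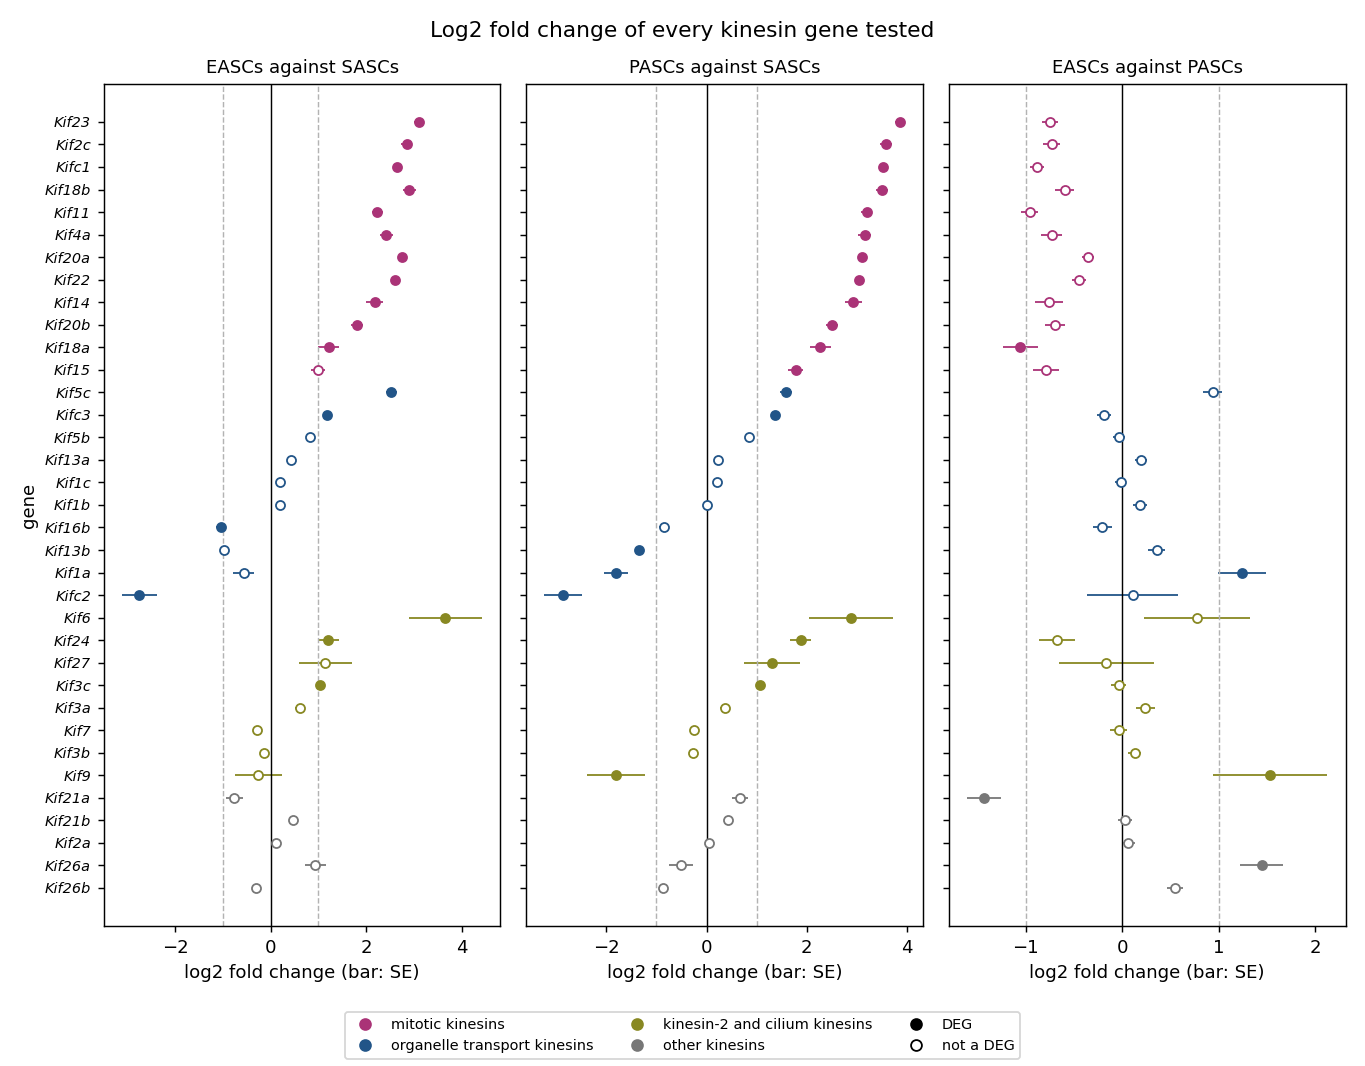
Log2 fold change of each of the 35 tested kinesins in EASCs against SASCs, PASCs against SASCs, and EASCs against PASCs, with bars for the SE, filled points for DEGs, and dashed lines at the fold threshold. The mitotic kinesins lie at 0.99 to 3.86 in the comparisons with SASCs and at -1.05 to -0.35 between the visceral groups, while the transport kinesins lie on both sides of 0.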

How the data were processed

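RNA of SASCs, PASCs, and EASCs was sequenced by the authors, who trimmed the reads, aligned them with TopHat, and deposited whole-number counts for 35362 genes in 9 samples, not normalized. The methods name rn6 and the submitters' processing notes rn5, and positions are printed as the deposited table gives them. The counting tool and its use of strand are not given in the sources used here. In every library the count of Rn45s was within 0.0368% to 0.107% of that of Rn18s and Rn28s together, so reads of these overlapping genes were counted for each.

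Samples were grouped by their labels. The methods give 6 replicates in each group, and 3 samples of each were analysed. Counts were fitted with edgeR 4.0.16 in R 4.3.3 (TMM factors 0.740 to 1.23, filterByExpr, which left 14770 genes, quasi-likelihood test, one model of 3 groups without a block), in place of DEGseq, which the authors used. P-values were adjusted by Benjamini-Hochberg within each comparison, and DEGs were called with the thresholds of the methods (more than 2-fold, adjusted p-value under 0.05). Replicates differed by more than counting noise (chi-square per degree of freedom 6.23 to 288, on raw counts with ribosomal RNA included). The largest value was that of EASC samples 2 and 3, with 15.9% and 40.3% of ribosomal RNA, and the part of that share was not tested. In counts simulated for EASCs against SASCs (14439 genes), 95 of 100 genes changed by 2 on the log2 scale and 91 of 100 changed by 1.5 were recovered, with 3 false calls.

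The members and lists were chosen with earlier results of these data known. Values are given for each tested mitotic and organelle transport kinesin, other kinesins that are DEGs in any comparison, and at most 5 members of each partner list with the largest change against SASCs. The remaining kinesins, Cenpe, and the spindle partners that were not DEGs were named beyond this rule. Of 155 listed genes 151 were found. Alternatives were DESeq2 1.42.0, RLE factors, library totals, removal of rRNA genes, other filters, only 2 groups in the fit, a replicate block, a fold change of 1.5, other memberships, and leaving out each sample. Promoters are from RefSeq (GRCr8).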

Additional observations from a re-analysis of the deposited data

Results flagged for a closer look

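The change against SASCs differed more than 2-fold between EASCs and PASCs for 5 kinesins at an adjusted p-value under 0.05, by the direct contrast of the visceral groups in edgeR's quasi-likelihood test with Benjamini-Hochberg adjustment. Of the 35 tested 3 were higher and 2 lower in EASCs, against 5.19% and 2.2% of all genes. At any fold 7 were higher and 14 lower, against 16.1% and 14.5% of all genes, and 12 of the 14 are the mitotic kinesins. The SASC samples enter this contrast through the estimate of the spread. The change in EASCs minus that in PASCs was -1.05 for Kif18a, of the spindle (adjusted p = 5.47e-05), 1.24 for Kif1a, a vesicle carrier (adjusted p = 0.000323), -1.43 for Kif21a, of the cell cortex (adjusted p = 3.36e-07), and 1.45 for Kif26a (adjusted p = 8.48e-06). Kif21a was lower in EASCs and higher in PASCs than in SASCs, with log2 fold changes of -0.76 and 0.67, both past the adjusted p-value of 0.05, but with library totals the value in PASCs was 0.35 and no longer passed (adjusted p = 0.165). For the gene listed as Kif9 the value was 1.54 (adjusted p = 0.0495), with 0 counts in PASC sample 2, and it was 0.90 (adjusted p = 0.236) without that sample. The call of Kif9 was lost in 11 of 16 alternatives, among them those without any 1 SASC sample (adjusted p = 0.0617 to 0.0637), with adjusted p-values of 0.00876 to 0.236 over all of them.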

How the results depend on the processing

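No DEG call of the 29 kinesins followed under the alternatives changed direction, and the calls of the partner lists were not followed. Of 336 alternative values of counts and list medians, 323 stayed within their limits. The median log2 fold change of the mitotic kinesins minus that of all genes in EASCs against SASCs, 2.51, was 2.33 without a filter on low counts, 2.32 with Kif2a and Kif24 added, and 2.46 to 2.58 with each replicate left out. The 1 mitotic DEG lower in EASCs than in PASCs became 2 with library totals, 10 at a fold change above 1.5, and 0 to 2 with each replicate left out. The share of all genes at a fold change above 1.5 was not computed, here or for the transport kinesins. The 2 organelle transport DEGs higher in EASCs than in SASCs became 1 with library totals, the 1 higher in EASCs than in PASCs became 2 at a fold change above 1.5, and the median of the transport kinesins minus that of all genes in PASCs against SASCs, 0.11, became 0.22 with Kif3a, Kif3b, Kif3c, and Kif17 added. The causes were not tested.

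Samples with the same number had correlations of their deviations of -0.0348 to 0.0380. These values show no pairing by number, but with 3 samples in each group they cannot exclude one. With the replicate block the mitotic DEGs were 11 in EASCs and 12 in PASCs, as without it, no count of DEGs of either list changed, and the median log2 fold change of the mitotic kinesins minus that of all genes in EASCs against SASCs was 2.51.

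Scaling by library totals without TMM set the median of all genes at -0.39 in EASCs and -0.33 in PASCs against SASCs, and the upregulated share of all DEGs at 28.3% and 28.5% in place of 48.8% and 44.7%. With that scaling, which leaves the shift in each value, Kif18a (0.81), Kif24 (0.81), Kifc3 (0.78), and Kif3c (0.64) lost their calls in EASCs against SASCs. Kif3c (0.75) and Kif27 (0.98) lost theirs in PASCs against SASCs, and the gene listed as Kif9 (1.43) in EASCs against PASCs. Kif16b (-1.18) became a DEG in PASCs, Kif13b (-1.39) and Kif21a (-1.15) in EASCs against SASCs, and Kif11 (-1.02) in EASCs against PASCs. Of 87 comparisons of 29 named kinesins, 18 had a call that changed under some alternative and 0 reversed. Kif6, Kif9, and Kif27 had 0 to 32 counts per sample, and the part of depth in their changed calls was not tested.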
